A study of Mus musculus with 8 samples.

Results

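The integrin subunits, the laminin chains and the basement membrane and matrix genes that accompany them were followed in RNA sequencing counts from the cortex of mouse embryos that lack the kinase NUAK1 and of their WT counterparts. The rule uses gene symbols and a count of at least 1 read, and it was set with earlier results of these data known. The rule took all integrin alpha and beta subunit genes, all laminin alpha, beta and gamma chain genes, and 10 further genes (Agrn, Dag1, Fbln1, Fbln2, Fbln5, Fn1, Hspg2, Nid1, Nid2 and Sparc). It gave 46 of the 21165 gene rows, made up of 17 integrin alpha subunits, 8 integrin beta subunits, 5 laminin alpha chains, 3 laminin beta chains, 3 laminin gamma chains and the 10 further genes. A filter on low counts passed 40 of them, and Itgae, Itgal, Itgax, Itgb6, Itgb7 and Lamb3 were not tested.

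Cortices were dissected at E18.5 from 4 Nuak1 KO and 4 WT embryos of C57Bl/6JRj background, and polyA RNA was sequenced from stranded libraries. KO embryos came from a constitutive line, so Nuak1 was missing from neurons, glia, vessels and meninges alike, and these animals do not survive birth. Each genotype had 2 embryos of litter A, 1 of litter C and 1 of litter D. There were 2 males among the KO and 1 among the WT embryos. The count columns carry a genotype and a running number (R1 to R4), so their names tie no library to a litter or a sex. Sex was not read from the counts, and p-values measure the spread between these embryos.

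A basement membrane is a thin sheet of extracellular matrix built on a laminin network and a collagen IV network, which are joined by nidogens and the heparan sulfate proteoglycans perlecan and agrin. Each laminin is a trimer of an alpha, a beta and a gamma chain, and cells hold on to it through integrins, which are alpha-beta heterodimers, and through dystroglycan. In the embryonic cortex a basement membrane lies under the pia, where radial glia attach their endfeet, and others surround the blood vessels. Meningeal fibroblasts, endothelial cells and mural cells are known sources of its components.

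Promoter sequences are shown for Lama2 and Nid1, which are among the few genes of this group past an unadjusted p of 0.05 below. They are RefSeq sequences on GRCm38.p6, from 250 bases before to 50 bases after the annotated start, on the strand of the gene, and they show what the starts of these genes look like. Capitals mark the GC box GGGCGG or its complement CCGCCC, the only motif searched, on both strands. The Lama2 promoter lies on the minus strand at chr10:27616893-27617192 and the Nid1 promoter on the plus strand at chr13:13437352-13437651.
Lama2: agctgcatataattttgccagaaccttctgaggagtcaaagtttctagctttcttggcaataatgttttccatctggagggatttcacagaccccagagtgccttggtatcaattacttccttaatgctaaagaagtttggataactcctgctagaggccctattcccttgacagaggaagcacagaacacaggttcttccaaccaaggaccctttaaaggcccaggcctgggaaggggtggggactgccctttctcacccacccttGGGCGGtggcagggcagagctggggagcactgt
Nid1: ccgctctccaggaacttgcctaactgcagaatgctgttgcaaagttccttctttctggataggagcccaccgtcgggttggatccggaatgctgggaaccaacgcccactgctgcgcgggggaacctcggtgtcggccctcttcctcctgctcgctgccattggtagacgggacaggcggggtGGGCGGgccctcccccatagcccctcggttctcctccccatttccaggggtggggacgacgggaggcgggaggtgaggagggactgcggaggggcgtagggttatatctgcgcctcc
Each of these promoters holds 1 GC box, and G and C make up 50.3% of the Lama2 and 64.7% of the Nid1 window. Of the promoters of the integrin, laminin and matrix genes, 31 genes with 38 starts were in the table, and 21 of the 38 promoters (55.3%) held a GC box, against 35.7% of all 32851 promoters. The median share of G and C was 59.3% in these 38 windows and 52.7% over all promoters. These values and the capitals are a description of the windows and no measure of binding. The promoters of Lama4 and Lamc3 are not shown.

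Depth and cell makeup were examined first, because 1 library stood apart. KO libraries held 11027082 to 27014858 counts and WT libraries 9643711 to 18940484. Values below are normalized counts, obtained by dividing the counts of a library by its effective size and multiplying by the mean of those sizes. SE stands for the standard error that belongs to a log2 fold change, and a BH-adjusted p is adjusted by Benjamini-Hochberg over all genes tested. Nuak1 had 11.1 to 20.5 normalized counts in KO and 877 to 1445 in WT, so every column followed its genotype label. Summed cortical neuron markers stood at 64035 in KO R1, at 69984 to 71769 in the other KO libraries and at 61695 to 65400 in WT, so KO R2 to R4 lay above all WT libraries. Choroid plexus markers summed to 93.5 in KO R1 and to 9.90 to 27.0 in the other libraries. Red blood cell markers summed to 3181 in KO R1, 4744 in KO R2 and 626 to 1405 in the remaining KO libraries, with 617 to 1428 in WT. The library KO R1 carried 10894 normalized counts of 14 meningeal fibroblast markers, against 412 to 576 in the other KO libraries and 329 to 443 in WT. All 14 of those markers were highest in KO R1, and Aldh1a2 and Slc22a6 were at 0 in the other 3 KO libraries. Endothelial markers summed to 8353 in KO R1 and to 5768 to 6625 in the other KO libraries, with 6077 to 6305 in WT. Mural cell markers summed to 4705 in KO R1, to 2623 to 3070 in the other KO libraries and to 2739 to 2871 in WT. The comparisons below are therefore given with and without KO R1, and the part that these markers play in it was not tested.

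As a group, these genes had a slightly positive median log2 fold change, most of which came with KO R1. The median log2 fold change, KO minus WT, of the 40 tested genes was 0.15, with 29 above 0 and 11 below, whereas the median over all 12699 genes tested was -0.01. Without KO R1 the median was 0.02, with 23 genes above 0 and 17 below, against a median of -0.000323 over all genes. Of all genes tested, 45.6% were above 0 with all 8 libraries and 49.9% without KO R1.

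**Figure D1:**
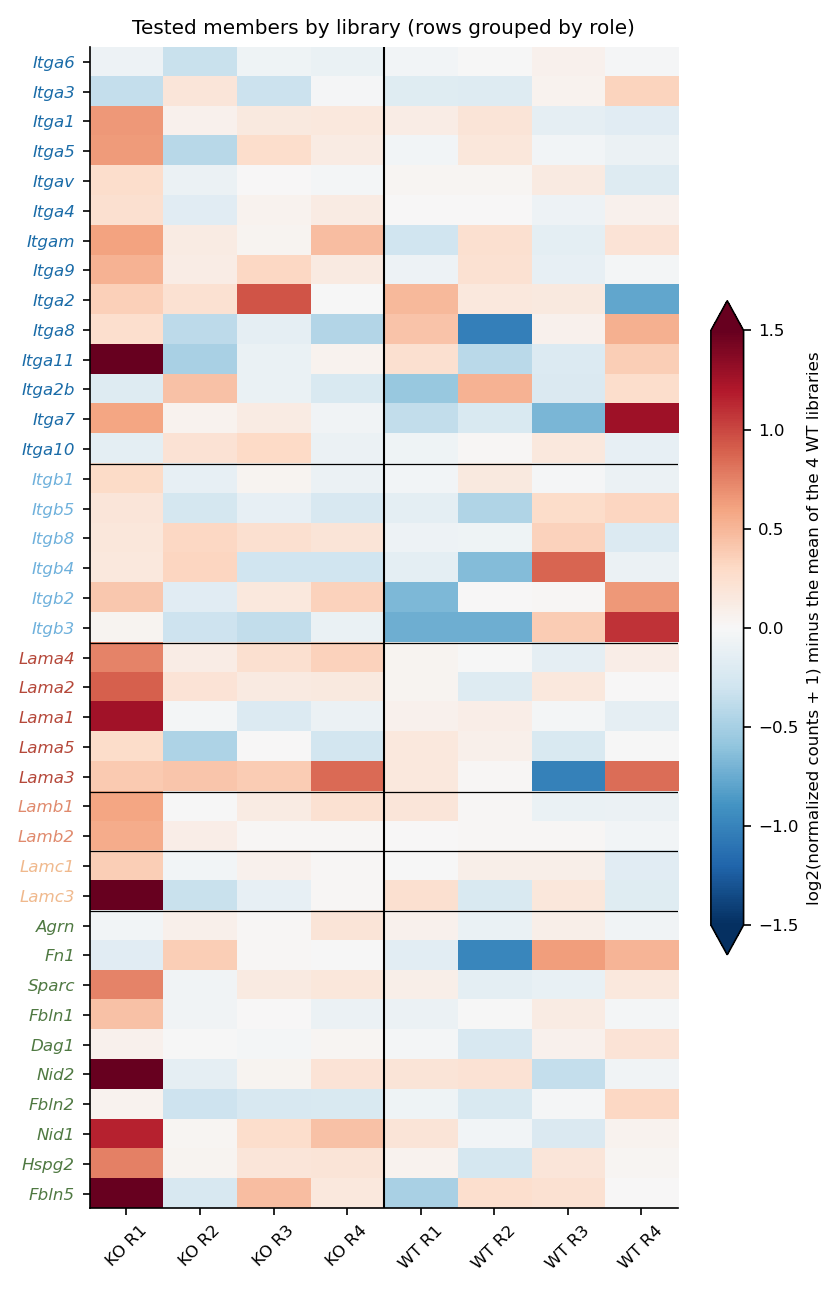
Level of all but 1 of the 40 tested genes (vertical axis, grouped by role) in each of the 8 libraries (horizontal axis), as log2(normalized counts + 1) minus the mean of the 4 WT libraries, with colours limited at 1.5 in either direction. KO R1, the first column, was the highest of all 8 libraries for 22 of the 40 genes.

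By single genes, Lama4, Lama2 and Nid1 were above WT in edgeR's quasi-likelihood test. Their unadjusted p was under 0.05 and their log2 fold change over 0.25. These limits were used by the study, which applied them to the Wald test of DESeq2. In edgeR's test 2.45% of all genes tested met them above WT. None of the 40 was below WT at those limits, against 1.8% of all genes. After Benjamini-Hochberg adjustment over all genes, 0 of the 40 passed 0.05 in edgeR's quasi-likelihood test, where 0.0709% of all genes did. The smallest adjusted p among the 40 was 0.526, for Lama4, and 3 genes had an unadjusted p under 0.05, against 7.69% of all genes. All 3 were above WT, where 4.51% of all genes had such a p, and 0 were below, where 3.18% did. DESeq2 gave no adjusted p to 10 of the 40, Fbln5 among them. It left 0 of the others past an adjusted p of 0.05, where 0.638% of the 10965 genes with an adjusted p passed. Its smallest adjusted p among them was 0.178. At the limits of the study it called 6 of the 40, against 3.85% of all genes. Without KO R1, 0 of the 40 met the limits of the study in edgeR's test, which 1.81% of all genes met above WT and 1.72% below. Only Lama4 then had an unadjusted p under 0.05 in edgeR's test, against 5.63% of all genes, and 0 of the 40 passed an adjusted p of 0.05, against 0.0465% of all genes. In bulk tissue, fewer cells of a type and less RNA per cell cannot be told apart, and the same holds for more of either.

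**Figure D2:**
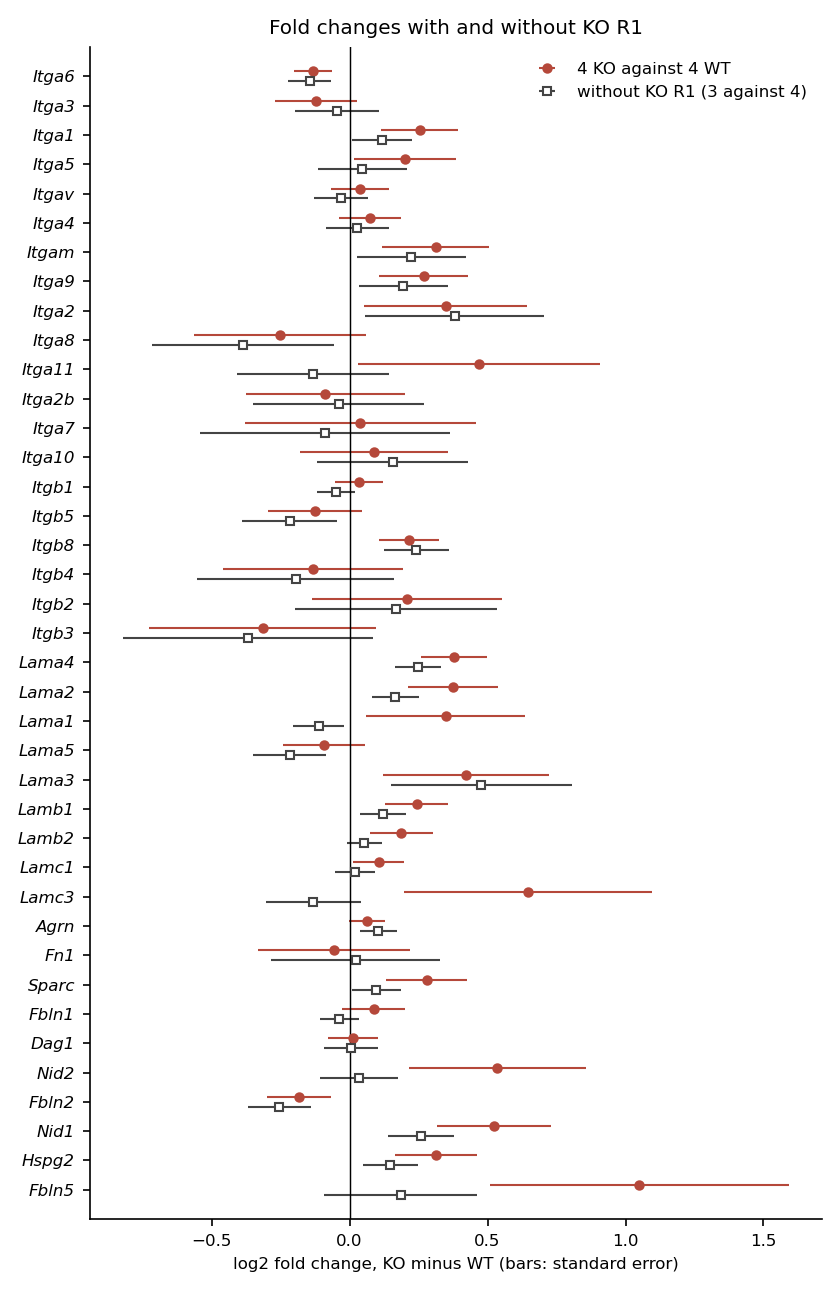
Log2 fold change of all but 1 of the 40 tested genes, KO minus WT, with its standard error, from 4 KO against 4 WT libraries (filled) and from 3 against 4 libraries without KO R1 (open). Fbln5 moves from 1.05 to 0.19, Lamc3 from 0.65 to -0.13, and Itga6 and Lama4 stay on the same side of 0.

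Among the receptors, integrin subunits as a class stood close to WT. Over the 20 tested integrin subunits the median log2 fold change was 0.06, with 13 above 0 and 7 below, and a median of -0.04 without KO R1. No integrin subunit reached an unadjusted p under 0.05 in either fit, and their smallest adjusted p was 0.697 by edgeR's quasi-likelihood test. Single subunits met the limits of the study when another library was left out, Itgb8 without WT R3, Itga5 without KO R2 and Itga8 without WT R2, and their values are given below. Itgb1, the beta subunit shared by most laminin, collagen and fibronectin receptors, was by far the most abundant, at 719.6 normalized counts per kb of exon averaged over the 8 libraries. It made up 78.9% to 86.7% of the summed beta subunit level per kb in every library.

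Itgb1 itself held 3530, 2667, 2972 and 2726 normalized counts in KO R1 to R4 and 2825, 3192, 2856 and 2726 in WT R1 to R4. The genotypes overlapped throughout, with KO R1 the highest and KO R2 the lowest library. Its log2 fold change was 0.03 (SE 0.09, BH-adjusted p = 0.954 by edgeR's quasi-likelihood test), and -0.05 (SE 0.07) without KO R1. The next beta subunits, Itgb5 and Itgb8, both known to pair with the alpha V subunit, stood at 94.4 and 44.8 normalized counts per kb. Itgb8, a subunit known for releasing active TGF-beta, averaged 533 ± 22.6 normalized counts in the KO libraries and 458 ± 80.5 in the WT libraries (SD, n = 4). The difference was 0.22 on the log2 scale (SE 0.11, BH-adjusted p = 0.697 by edgeR's quasi-likelihood test) and 0.24 without KO R1. KO R1 was the lowest KO library for Itgb8, at 511, and the WT libraries held 432, 432, 576 and 394. WT R3 thus stood above all KO libraries and the other WT libraries below them. Without WT R3 the log2 fold change of Itgb8 was 0.35 (SE 0.08, BH-adjusted p = 0.390 by edgeR's test) and met the limits of the study, as 1.86% of all genes above WT did in that fit.

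Itga6, the alpha subunit of laminin receptors in neural progenitors, was the most abundant alpha subunit at 101 normalized counts per kb of exon, ahead of Itga3, another laminin receptor subunit, at 64.2. Itga6 lies on chromosome 2 of NCBIM37 from 71583673 to 71696473, and it was the only tested gene of the group in which every KO library was below every WT library, a pattern seen in 1.85% of all genes tested. Its KO libraries held 908, 756, 916 and 892 normalized counts and its WT libraries 927, 951, 996 and 944. The gap between the genotypes was narrow, since the highest KO library was at 916 and the lowest WT library at 927, and KO R2 was lower than the rest. In log2 terms KO minus WT was -0.13 (SE 0.07, BH-adjusted p = 0.710 by edgeR's quasi-likelihood test). Without KO R1 it was -0.14, so the value did not rest on that library, whereas without KO R2 it was -0.06. Of 12 progenitor markers, 1 had a log2 fold change above 0, with a median of -0.13, or -0.16 without KO R1. Summed, these markers stood at 33949 in KO R1, at 31913 to 37684 in the other KO libraries and at 30492 to 46577 in WT. Their part in the Itga6 value was not tested.

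The collagen receptor subunit Itga11 stood out through a single library. It held 79.4, 18.2, 24.1 and 27.0 normalized counts in KO R1 to R4 and 30.8, 19.3, 22.5 and 33.8 in WT. KO R1 was 3.29 times the median of the other KO libraries, which lay within the range of WT or just below it. This gave a log2 fold change of 0.47 (SE 0.44, BH-adjusted p = 0.854 by edgeR's quasi-likelihood test) with all libraries and -0.13 without KO R1. The other collagen receptor subunits Itga1, Itga2 and Itga10 had log2 fold changes of 0.25, 0.35 and 0.09, or 0.12, 0.38 and 0.16 without KO R1, none past an unadjusted p of 0.05 in edgeR's test. Itga5, which with Itgb1 forms the classical fibronectin receptor, had a log2 fold change of 0.20 with all libraries and 0.05 without KO R1. Without KO R2, its lowest library at 108 normalized counts, it was 0.35 (SE 0.15, BH-adjusted p = 0.551 by edgeR's test) and met the limits, which 3.75% of all genes met above WT in that fit. Itga8, an alpha subunit of receptors for matrix proteins such as nephronectin, held 42.5 to 69.2 normalized counts in KO and 78.1, 28.0, 60.8 and 84.5 in WT. For Itga8 the log2 fold change was -0.25 (SE 0.31), and it met the limits without WT R2, at -0.52 (SE 0.22, BH-adjusted p = 0.588 by edgeR's test), as 2.61% of all genes did below WT in that fit.

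Integrins of blood cells were at low levels. Itgam, an alpha subunit of macrophages and microglia, held 46.2 to 87.1 normalized counts, with its highest value in KO R1, and Itgb2, its partner, 6.17 to 16.9. The leukocyte subunits Itgal, Itgax, Itgae and Itgb7 and the epithelial subunit Itgb6 did not pass the filter on low counts, with at most 21 reads in any library for Itgal and 1 for Itgb6. Summed microglia markers stood at 2492 in KO R1, at 1525 to 2035 in the other KO libraries and at 1282 to 1914 in WT. The part of these cells in the Itgam values was not tested.

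**Figure D3:**
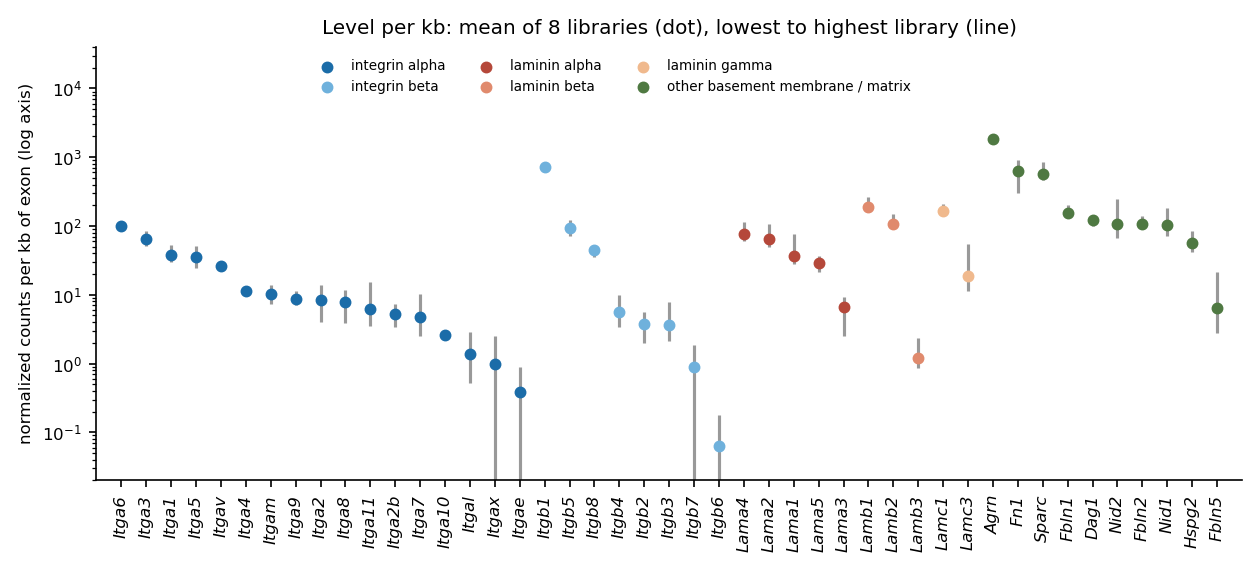
Normalized counts per kb of exon (log axis) of all but 1 of the 46 genes, ordered by level within each role, with the mean of the 8 libraries (dot) and the lowest to highest library (line, cut at the lower edge where a library had no reads). Itgb1 stands above all other integrin subunits and Agrn above all genes of the group, while Itgb6 is the lowest.

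Among the ligands, most laminin chains had a positive log2 fold change with all libraries, and their median was close to 0 without KO R1. Over the 10 tested laminin chains the median log2 fold change was 0.30, with 8 above 0 and 2 below, and a median of 0.04 without KO R1, with 6 above and 4 below. KO R1 was the highest of all libraries in 8 of these 10 chains, while it was the highest library in 16.8% of all genes tested. The most abundant chains, per kb of exon, were Lamb1 at 189.9, Lamc1 at 166, Lamb2 at 108 and Lama4 at 77.7 normalized counts per kb.

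Lama4, the alpha chain typical of vessel walls, was the gene of this group with the smallest p. It lies on chromosome 10 of NCBIM37 from 38685321 to 38829994. Its libraries held 1362, 877, 962 and 1037 normalized counts in KO and 838, 807, 739.9 and 873 in WT. Every KO library was above every WT library, as in 2.64% of all genes tested and in 3.5% once KO R1 was left out, although KO R2 exceeded WT R4 by only a few normalized counts. KO exceeded WT by 0.38 on the log2 scale (SE 0.12, BH-adjusted p = 0.526 by edgeR's quasi-likelihood test). Without KO R1 it was 0.248, just under the limit of 0.25 (SE 0.08, BH-adjusted p = 0.747 by the same edgeR test). The unadjusted p stayed under 0.05 in all 8 fits that left out 1 library each, with log2 fold changes of 0.25 to 0.47. Lama4 made up 36.7% to 40.4% of the summed alpha chain level per kb in KO R2 to R4 and 33.4% to 36.7% in WT. In KO R1 its share was 33.4%. Of the 14 endothelial markers, 12 had a log2 fold change above 0, with a median of 0.24, or 0.10 without KO R1. With all libraries 2 of the 14 were above WT at the limits of the study, against 2.45% of all genes. Without KO R1, 2 of these markers were, against 1.81% of all genes. All 11 mural markers had a log2 fold change above 0, with a median of 0.24. Without KO R1, 8 of the 11 were above 0, with a median of 0.11. Of the 14 meningeal fibroblast markers 6 were tested, all above 0, with a median of 2.93. Without KO R1, 5 of 6 tested were above 0, with a median of 0.38. The part of these cells in the Lama4 value was not tested.

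Lama2, the alpha chain mutated in a congenital muscular dystrophy, differed mainly through KO R1. It lies on chromosome 10 of NCBIM37 from 26701094 to 27336748. KO R1 held 1031 normalized counts and the other KO libraries 639, 606 and 613, against 568, 485, 616 and 554 in WT. The genotypes overlapped, because WT R3 was above KO R3 and KO R4. The log2 fold change of Lama2 was 0.37 (SE 0.16, BH-adjusted p = 0.645 by edgeR's quasi-likelihood test). Without KO R1 it was 0.17 (SE 0.08, BH-adjusted p = 0.877 in the same edgeR test), and the unadjusted p stayed under 0.05 in 4 of the 8 fits that left out a library.

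The alpha chains did not all lie on the same side of WT. Lama1, the alpha chain of the earliest embryonic basement membranes and of the pial surface, held 728 normalized counts in KO R1 and 264 to 296 in the other KO libraries, which lay below 3 of the 4 WT libraries, whose range was 275 to 325. Its log2 fold change accordingly passed from 0.35 to -0.11 when KO R1 was left out. Lama5 made up 10.7% to 14.5% of the alpha chain level per kb in KO and 13.8% to 16.7% in WT, with a log2 fold change of -0.09, or -0.22 without KO R1 (SE 0.13). Lama3, an epithelial chain, had the lowest level of the alpha chains at 6.59 normalized counts per kb, and its highest WT library was 3.71 times its lowest. Its log2 fold change was 0.42 (SE 0.30), and 0.48 without KO R1. Without WT R4, its highest WT library, it was 0.72 (SE 0.26, BH-adjusted p = 0.306 by edgeR's test) and met the limits of the study, which 4.13% of all genes met above WT in that fit.

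Both tested beta chains had small positive log2 fold changes. Neither reached an unadjusted p under 0.05 in edgeR's test with all libraries and the filter on low counts. Lamb1 held 2584, 1709, 1874 and 2007 normalized counts in KO and 1945, 1736, 1599 and 1615 in WT. KO R2 lay below 2 of the WT libraries, so the genotypes overlapped. For Lamb1 the log2 fold change was 0.24 (SE 0.12, BH-adjusted p = 0.667 by edgeR's quasi-likelihood test) and 0.12 without KO R1. Its unadjusted p was under 0.05 in 3 of the 8 fits that left out a library. Without the filter Lamb1 met the limits of the study at 0.25 (BH-adjusted p = 0.723 by edgeR's test). In that fit 2.78% of all genes did so above WT. Lamb2, a beta chain of vessels, muscle and kidney, held 838, 610, 575 and 576 normalized counts in KO and 570.3, 575, 575 and 551 in WT. Every KO library of Lamb2 was above every WT library, but KO R3 and the highest WT library differed by less than 1 normalized count. Its log2 fold change was 0.19 (SE 0.11, BH-adjusted p = 0.773 by the same edgeR test), and 0.05 without KO R1.

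Among the gamma chains, KO R1 stood apart in Lamc3. Lamc1, the gamma chain of most laminins, held 1705, 1280.2, 1379 and 1340.3 normalized counts in KO and 1317, 1404, 1402 and 1169 in WT, with a log2 fold change of 0.10 (SE 0.09) and 0.02 without KO R1. Lamc3, a gamma chain whose human gene is mutated in malformations of the occipital cortex, held 331 normalized counts in KO R1 and 69.9, 81.1 and 89.7 in the other KO libraries, against 105, 75.4, 99.1 and 77.7 in WT. Lamc3 lies on chromosome 2 of NCBIM37 from 31742811 to 31802059. KO R1 was 4.08 times the median of the other KO libraries, and those overlapped with WT. Accordingly, the log2 fold change of Lamc3 was 0.65 (SE 0.45, BH-adjusted p = 0.795 by edgeR's quasi-likelihood test) with all libraries and -0.13 (SE 0.17) without KO R1. Lamc3 made up 20.5% of the summed gamma chain level per kb in KO R1 and 6.70% to 9.42% in every other library, while the share of Lamc1 was 77.8% in KO R1 and 83.4% to 91.9% elsewhere.

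**Figure D4:**
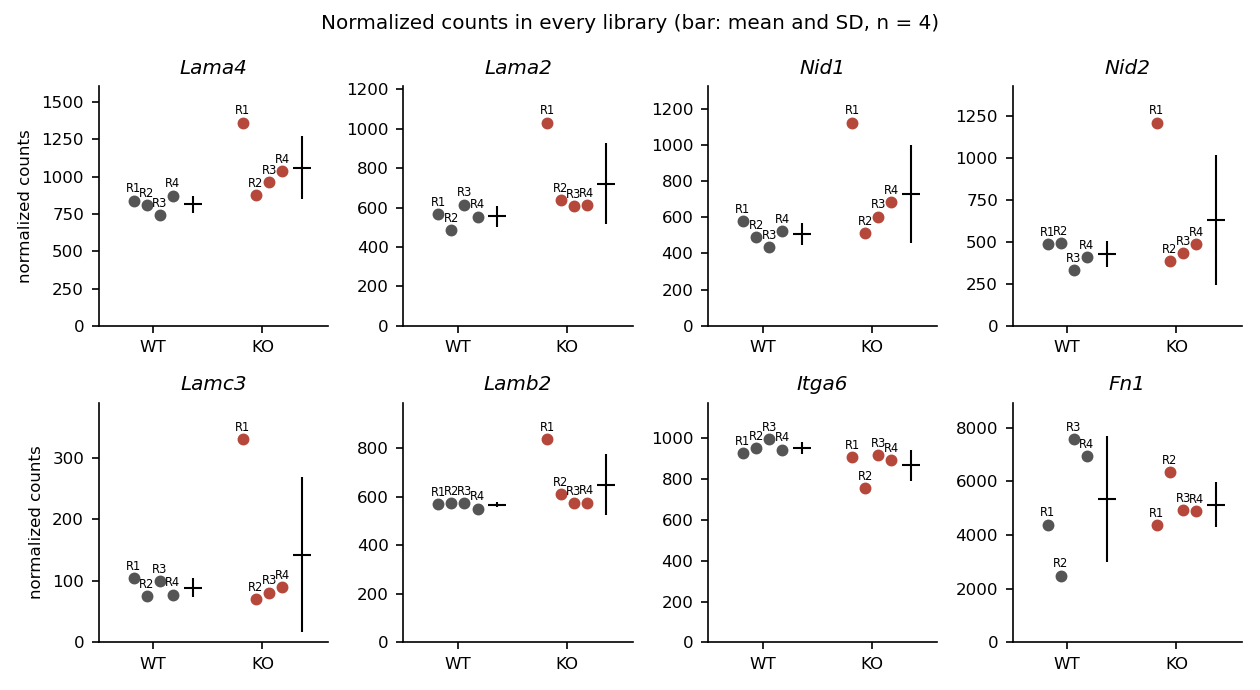
Normalized counts of 8 genes of the group in every library (points, numbered R1 to R4; vertical axes start at 0), with the mean and SD of each genotype (bars, n = 4). KO R1 is far above the other KO libraries for Lama2, Nid1, Nid2, Lamc3 and Lamb2. Lama4, Lamb2 and Itga6 have no overlap between genotypes, and Fn1 has the widest range among WT libraries of the 8 genes.

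The nidogens, which bridge the laminin and collagen IV networks, both stood higher in KO R1 than in any other library. Nid1, on chromosome 13 of NCBIM37 from 13529869 to 13604542, held 1122, 512, 603 and 683 normalized counts in KO and 577, 492, 435 and 522 in WT. KO R2 lay below 2 of the WT libraries, while KO R3 and KO R4 were above all of them. The log2 fold change of Nid1 was 0.52 (SE 0.21, BH-adjusted p = 0.621 by edgeR's quasi-likelihood test). Without KO R1 it was 0.26 (SE 0.12, BH-adjusted p = 0.865 in the same edgeR test), and the unadjusted p stayed under 0.05 in 5 of the 8 fits that left out a library. Nid2 held 1212 normalized counts in KO R1, 2.79 times the median of the other KO libraries, and its log2 fold change passed from 0.54 to 0.03 without that library.

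The proteoglycans differed from each other. Agrn, the gene of agrin, which organizes synapses at the neuromuscular junction and is also made by neurons, was the most abundant gene of the group at 1829.9 normalized counts per kb of exon. It held 13836, 15055, 14396 and 16220.1 normalized counts in KO and 14854, 13261, 15163 and 13702 in WT. The genotypes overlapped, and KO R1 was the lowest KO library. Its log2 fold change was 0.06 (SE 0.07, BH-adjusted p = 0.868 by edgeR's quasi-likelihood test), and 0.10 without KO R1. Hspg2, the gene of perlecan, stood at 1213 normalized counts in KO R1 and 736 to 818 in the other KO libraries, with 598 to 811 in WT, and its log2 fold change of 0.31 became 0.15 without KO R1.

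Dag1, whose product dystroglycan binds the laminin alpha chains, averaged 550 ± 15.7 normalized counts in the KO libraries and 547 ± 69.4 in the WT libraries (SD, n = 4), and its log2 fold change was 0.01 (SE 0.09), as it was without KO R1. Among the matrix glycoproteins, Fbln5, an elastic fibre protein, had the highest log2 fold change of the group, and it rested on KO R1. It held 125.6, 19.8, 32.8 and 26.3 normalized counts in KO and 16.4, 28.0, 27.7 and 23.6 in WT. KO R1 was 4.77 times the median of the other KO libraries, which overlapped with WT. For Fbln5 the log2 fold change was 1.05 (SE 0.54, BH-adjusted p = 0.708 by edgeR's quasi-likelihood test) with all libraries and 0.19 (SE 0.28) without KO R1. Sparc, a collagen-binding glycoprotein, stood at 2884 normalized counts in KO R1 and 1660.3 to 1924 in the other KO libraries, with 1548 to 1922 in WT, and its log2 fold change of 0.28 became 0.10 without KO R1. Fbln2 was the gene of the group that had no overlap between genotypes once KO R1 was left out and had some before. It held 541 to 569 normalized counts in KO R2 to R4 and 569.6 to 833 in WT, so the gap was narrow. Its log2 fold change was -0.18 with all libraries and -0.25 without KO R1 (SE 0.12, BH-adjusted p = 0.865 by edgeR's test). Among all genes, 3.23% were lower in KO without overlap when KO R1 was left out. In DESeq2 without KO R1, Fbln2 met the limits of the study at -0.26 (SE 0.13, BH-adjusted p = 0.931 by its Wald test). In that fit 1.57% of all genes did so below WT.

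Fn1, the gene of fibronectin, varied more between WT libraries than between the genotypes. It held 4366, 6342, 4941 and 4894 normalized counts in KO and 4394, 2483, 7578 and 6944 in WT, so the highest WT library was 3.05 times the lowest. The log2 fold change was -0.06 (SE 0.28), and 0.02 (SE 0.31) without KO R1. A WT range of at least 2 times was seen in 10 of the 40 tested genes and in 10.1% of all genes.

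KO R1 was the highest library for 22 of the 40 tested genes, against 16.8% of all genes. Its level divided by the median of the other KO libraries had a median of 1.36 over the 40 genes and 0.99 over all genes tested. By role, that median was 1.27 for the integrin alpha subunits, 1.30 for the beta subunits, 1.47 for the laminin alpha chains, 1.42 for the laminin beta chains and 1.45 for the other basement membrane and matrix genes. The ratio was at least 2 in 5 of the 40 genes, Itga11, Lama1, Lamc3, Nid2 and Fbln5, against 2.32% of all genes. In KO R1, summed meningeal markers were 24.9 times, choroid plexus markers 4.95 times, red blood cell markers 2.26 times, microglia markers 1.63 times, mural markers 1.54 times and endothelial markers 1.27 times the median of the other KO libraries. Their part in these ratios was not tested.

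**Figure D5:**
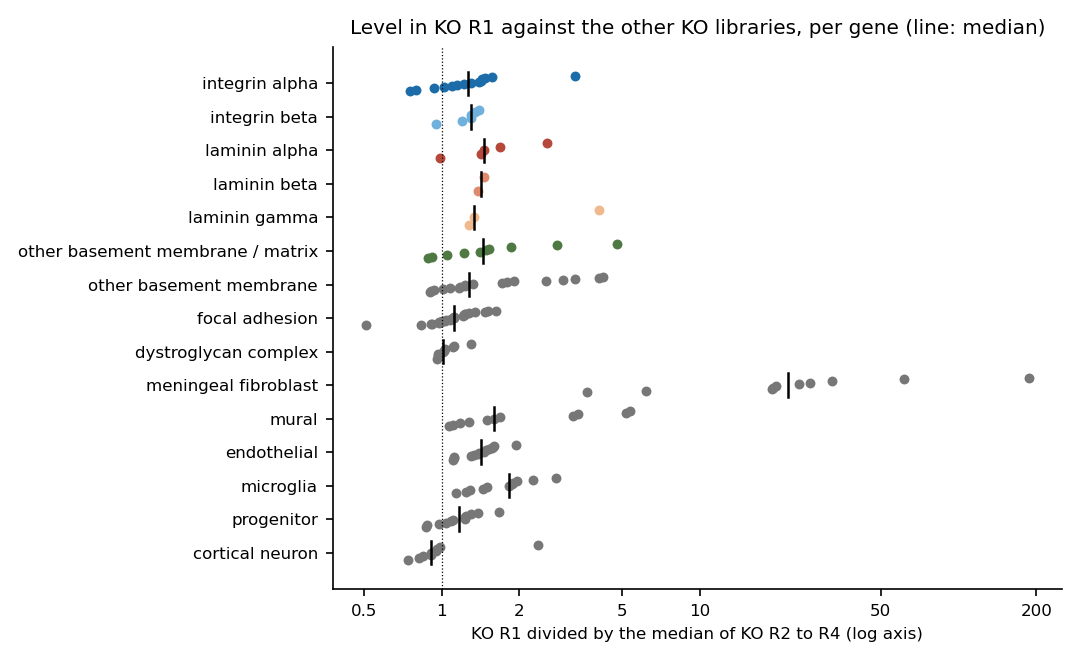
Level in KO R1 divided by the median of KO R2 to R4 (log axis) for each gene (points) with the median of each class (line), for the integrin, laminin and matrix classes and for other gene lists. Meningeal markers lie far to the right of 1, while the integrin, laminin and matrix classes have medians of 1.27 to 1.47 with single genes up to 4.77.

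Genes that work with these proteins were counted in the same way. Of 27 focal adhesion genes, the adaptors and kinases that link integrins to actin, 26 were tested, and 0 met the limits of the study in either direction, which 2.45% of all genes met above and 1.8% below WT. Their median log2 fold change was 0.02, and 0.01 without KO R1. In that fit 1 of the 26 met the limits, against 1.72% of all genes below WT, namely Parva, an actin-binding partner of the integrin-linked kinase, at -0.33 (SE 0.12, BH-adjusted p = 0.832 by edgeR's test), which was named after its value was seen. The smallest p belonged to Ilk, the integrin-linked kinase, with a log2 fold change of 0.08 (SE 0.05, BH-adjusted p = 0.778 by edgeR's quasi-likelihood test), followed by Parvg at 0.43 and Actn1 at 0.09. Of the 15 genes of the dystrophin complex that holds dystroglycan, 9 were tested, and 2 were above WT and 0 below at those limits, against the same 2.45% and 1.8% of all genes. These were Sntg1, a syntrophin, at 0.49 (SE 0.18, BH-adjusted p = 0.608) and Sgce, a sarcoglycan, at 0.25 (SE 0.10, BH-adjusted p = 0.611), while Dtnb, a dystrobrevin, had -0.24 (SE 0.09, BH-adjusted p = 0.612), all by edgeR's test. Without KO R1 these values were 0.53, 0.22 and -0.22. Sntg1 alone then met the limits, above WT as 1.81% of all genes did in that fit. Of the enzymes that glycosylate dystroglycan, 10 were tested and 0 met the limits, against those shares of all genes, with a median log2 fold change of -0.01. The lowest p there was that of Gmppb, at -0.18 (SE 0.14, BH-adjusted p = 0.813 by edgeR's test).

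Further basement membrane genes outside the group were also followed. Of 21 listed, 18 were tested, and 5 were above WT (Col15a1, Col4a1, Col4a2, Egflam and Frem2) and 0 below at the limits of the study, against 2.45% of all genes above WT. Their median log2 fold change was 0.28, and -0.01 without KO R1. In the fit without KO R1, 2 of them, Frem2 and Col15a1, still met the limits above WT, against 1.81% of all genes. In KO R1 the summed counts of the 21 genes were 1.56 times the median of the other KO libraries. Frem2, a component of the matrix complex that is lost in Fraser syndrome, averaged 504 ± 68.0 normalized counts in the KO libraries and 265 ± 62.3 in the WT libraries (SD, n = 4), and its lowest KO library, at 449, was above its highest WT library, at 336. Its log2 fold change was 0.94 (SE 0.16, BH-adjusted p = 0.0763 by edgeR's quasi-likelihood test), and 0.95 without KO R1. Without the filter on low counts the BH-adjusted p of Frem2 was 0.0499 by edgeR's test. The Wald test of DESeq2 gave Frem2 a BH-adjusted p of 1.85e-05 with all libraries and 3.64e-04 without KO R1. With all libraries, 0.638% of the genes with an adjusted p passed 0.05 in DESeq2. Col15a1, a collagen of vessel and muscle basement membranes, had a log2 fold change of 0.61 (SE 0.20), and 0.57 without KO R1. Col4a1, a main chain of collagen IV, held 8341 normalized counts in KO R1, 4108 to 5024 in the other KO libraries and 3497 to 4240 in WT, with a log2 fold change of 0.48 (SE 0.18), and 0.22 without KO R1.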

How the data were processed

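RNA from the cortex of 4 Nuak1 KO and 4 WT embryos was measured, and the only values used were read counts per gene. The authors demultiplexed reads with bcl2fastq 2.17.1.14, trimmed them with Cutadapt 1.13 and Prinseq, used TopHat2 2.0.13 and SAMtools 0.1.19 to map them to mm9, and deposited whole-number HTSeq-count counts without normalization. The strand setting of the counting is not given in the sources used here, so reads of a gene and of an overlapping or antisense gene may be mixed. Columns were grouped by genotype, and 0 per-library columns were left unused.

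The counts went into the quasi-likelihood test of edgeR 4.0.16 (R 4.3.3) after TMM normalization, over the 12699 genes kept by filterByExpr, and again without KO R1 over 12899, with Benjamini-Hochberg adjustment over all genes tested. A gene met the limits of the study at an unadjusted p under 0.05 and an absolute log2 fold change over 0.25. The study applied these limits to the Wald test of DESeq2, and here they apply to edgeR's test unless DESeq2 is named. Standard errors are the log2 fold change divided by the square root of F. Alternatives were the Wald test of DESeq2 1.42.0, its size factors in place of TMM, dropping the filter, requiring 10 counts per library, and omitting each library in turn. Libraries of a genotype differed by a chi-square of at least 5.73 per degree of freedom, so none was counted as a repeat of another. The test was tried on simulated data with known log2 fold changes, 12699 genes in 8 libraries, where an adjusted p of 0.05 recovered 36 of 67 genes with a change of 0.5, 59 of 67 with 1 and 66 of 66 with 2, and falsely called 14 of 12424. Without KO R1 (12899 genes) the same figures were 38 of 67, 56 of 67, 66 of 66 and 3 of 12602. The simulated libraries of a genotype shared a common mean per gene, scaled to depth. No simulated library differed in cell makeup, litter or sex, so these figures do not measure recovery beside a library such as KO R1.

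The genes, lists and tests were chosen with earlier results of these data known. Values in every library are given for genes with an unadjusted p under 0.05 in either fit, genes without overlap between genotypes, the gene with the highest level per kb in each role, and genes with a mean of at least 10 normalized counts in which KO R1 is at least 3 times the median of the other KO libraries. Of the lists of partner genes, up to 3 with the smallest p are named. Parva, Egflam and Col4a2 are named in addition, because they met the limits of the study in a fit. Other genes of the group, Itgb8, Lama1, Lama5, Nid2, Hspg2, Sparc, Fbln2 and Fn1 among them, were picked as examples after their values were seen. Positions and exon lengths come from a GENCODE annotation of NCBIM37, the assembly behind mm9, and promoters from RefSeq on GRCm38.p6. The values of 1 gene of the group are not reported here, though it stays in the counts and medians.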

Additional observations from a re-analysis of the deposited data

Results flagged for a closer look

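Among 42 groups of 4 libraries that were searched for a single value far from the other 3, 8 held one, and 6 of the 8 were KO R1. Chance gives such a value in about 1 in 20 groups, but that share cannot be applied here, since Itga11, Lamc3 and Fbln5 were included because KO R1 was at least 3 times the median of the other KO libraries. In KO R1, Itga11 stood at 79.4 normalized counts with the other KO libraries between 18.2 and 27.0, Lama2 at 1031 with the others between 606 and 639, and Lamb2 at 838 with the others between 575 and 610. Lamc3 stood at 331 in KO R1 with the other KO libraries between 69.9 and 89.7, and Fbln5 at 125.6 with the others between 19.8 and 32.8. The summed meningeal fibroblast markers stood at 10894 in KO R1 with the others between 412 and 576.

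Itga6 was set apart on the low side in KO R2, at 755.6 normalized counts with the other KO libraries between 892 and 916. The summed endothelial markers were low in WT R3, at 6077 with the other WT libraries between 6278 and 6305.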

How the results depend on the processing

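The count of integrin, laminin and matrix genes that met the limits of the study was 3 in edgeR, 6 in DESeq2 and 5 without the filter on low counts, and 0 to 8 when each library was left out, 0 without KO R1 and 8 without KO R2. All genes past these limits in either direction made up 4.25%, 3.85%, 4.33%, 3.54% and 5.35% in those fits, in that order. The 8 without KO R2 were Lama2, Lama4, Nid1, Hspg2, Fbln5, Itga5, Sparc and Lamb1, all above WT, where 3.75% of all genes were. DESeq2 added Hspg2, Fbln5 and Lamb1. Without KO R1 the count was 0 in edgeR and 1 in DESeq2, namely Fbln2, below WT as 1.57% of all genes were in that fit. The count was 0 to 4 in edgeR when a further library was left out, 4 of them without WT R2, all below WT, against 3% of all genes. The median log2 fold change of 0.15 became 0.10 without the filter and 0.20 with at least 10 counts in every library, and the median log2 fold change ranged from 0.025 (without KO R1) to 0.19 with each library left out. With each library left out, calls ranged from 0 to 1 for focal adhesion genes, from 1 to 3 for the dystrophin complex and from 2 to 7 for further basement membrane genes. All genes past the limits in either direction made up 3.29% (without WT R3) to 6.57% (without WT R4) in those fits. The 7 came without KO R2, where 5.35% of all genes passed. Of the 40 tested genes, 8 changed sign without KO R1 (Itgav, Itga7, Itga11, Itgb1, Lama1, Lamc3, Fn1 and Fbln1). The log2 fold change of Itga11 ranged from -0.13 (without KO R1) to 0.67 with each library left out, that of Itgb1 from -0.048 (without KO R1) to 0.094, and that of Lamc3 from -0.13 (without KO R1) to 0.86. Over 144 fits of 12 genes, 126 kept the direction and the side of an unadjusted p of 0.05, 7 lost the call, 8 gained one and 3 changed sign. The causes were not tested. No paired analysis was possible because the count columns carry neither litter nor embryo nor sex, and a fit with litter as a block was not run. Depth limits what can be said of Itgae, Itgal, Itgax, Itgb6, Itgb7 and Lamb3, which had too few reads to test.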
